A study of Mus musculus with 4 samples.

Results

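Plasmacytoid dendritic cells were picked out of 2 droplet single-cell RNA libraries of mouse bone marrow cells labelled ckit+, and 208 of the 26656 cells that passed the filter in those libraries met the rule. A cell was a member when it had at least 1 UMI (1 counted transcript molecule) in 3 or more of the 7 genes Siglech, Ccr9, Cox6a2, Pacsin1, Klk1, Cd209d and Tcf4, and no UMI of Cd79a, a B cell gene. There were 108 members among 13708 cells of the library labelled KO and 100 among 12948 cells of the library labelled WT. KO stands for a knockout of Rbm5, which codes for an RNA-binding splicing factor, and WT for wild type. The study set normal marrow progenitors beside leukaemia cells carrying the MLL-AF9 fusion, with the question of what Rbm5 does in each. The labels give no strain, age, sex, number of pooled mice or allele design, and nothing on how the c-Kit+ cells were enriched. Each group is 1 library, so every comparison below is a value with no replicate check and no test, and all intervals are 95% intervals that cover counting error only. In the 2 leukaemia libraries the same rule was met by 3 of 11778 cells labelled KO and 5 of 13177 cells labelled WT.

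Plasmacytoid dendritic cells are blood cells that arise in the marrow, sense viral RNA and DNA inside endosomes through the receptors TLR7 and TLR9, and are known for releasing large amounts of type I interferon. Their identity depends on the basic helix-loop-helix factor TCF4 (also called E2-2), which binds DNA at E-boxes, together with IRF8, SPIB, RUNX2 and BCL11A, while ID2 opposes TCF4. They develop from progenitors that carry the receptor FLT3, along myeloid and lymphoid routes, and the lymphoid route passes through cells with Ly6d, Il7r and Dntt.

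The start regions of the rule genes are shown because TCF4, itself one of the 7 genes, recognises the E-box letters CANNTG. RefSeq windows of 300 bases around the RefSeq gene start (GRCm38.p6) were searched for 5 rule genes, Siglech, Ccr9, Pacsin1, Klk1 and Cd209d. No window was at hand for Cox6a2, and Tcf4 itself was left out of the search by choice. Windows of the 3 genes that hold the letters CAGGTG on either strand are printed 5′ to 3′ on the gene's own strand, with every CANNTG in capitals. By RefSeq they lie upstream of and into the first transcribed bases, all on the plus strand. They are chr7:55767934-55768233 for Siglech, chr9:123766961-123767260 for Ccr9 and chr7:44225110-44225409 for Klk1. In GENCODE M21 the Ccr9 gene starts further upstream, at 123678439, so the Ccr9 window lies inside it. The same holds for the Pacsin1 window.
Siglech: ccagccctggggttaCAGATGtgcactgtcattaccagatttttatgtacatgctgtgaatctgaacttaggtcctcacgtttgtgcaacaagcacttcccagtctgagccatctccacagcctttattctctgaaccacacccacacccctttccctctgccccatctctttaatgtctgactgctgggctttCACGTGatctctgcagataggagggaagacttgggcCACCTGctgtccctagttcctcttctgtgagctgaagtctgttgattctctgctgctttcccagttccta
Ccr9: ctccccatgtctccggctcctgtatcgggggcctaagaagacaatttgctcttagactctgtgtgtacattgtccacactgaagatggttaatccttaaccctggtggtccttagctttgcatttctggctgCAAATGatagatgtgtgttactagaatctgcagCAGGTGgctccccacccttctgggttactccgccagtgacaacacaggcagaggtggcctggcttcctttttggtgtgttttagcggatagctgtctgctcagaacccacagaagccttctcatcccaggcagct
Klk1: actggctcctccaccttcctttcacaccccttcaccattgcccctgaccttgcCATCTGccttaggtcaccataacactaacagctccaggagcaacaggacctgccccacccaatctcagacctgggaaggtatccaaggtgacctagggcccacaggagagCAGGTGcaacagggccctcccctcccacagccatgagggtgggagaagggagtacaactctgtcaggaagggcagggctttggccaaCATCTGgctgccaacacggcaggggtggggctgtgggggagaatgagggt
CANNTG occurred 3 times in the Siglech window, 2 times in that of Ccr9, 3 times in that of Klk1, 1 time in that of Cd209d and not in that of Pacsin1. Of 32851 mouse windows of the same length, 72.3% held CANNTG, so 4 of 5 is near the share of all genes. The letters CAGGTG were in 3 of the 5 windows and in 20.2% of all windows. CAGCTG, which also has the form CANNTG, was in 0 of the 5 windows and in 16.3% of all windows. The RUNX letters TGTGGT were in 3 of the 5 and in 16.8% of all windows. The PU box letters GAGGAA were in 2 of the 5 and in 28.3% of all windows. Both strands were searched, and every CAGGTG is also a CANNTG. A match is a run of letters and not a measured binding site.

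The members made up 0.788% (0.647 to 0.950) of the cells labelled KO and 0.772% (0.629 to 0.939) of those labelled WT. The ratio of the shares was 1.02 (0.770 to 1.35), so no difference was detectable at this depth. The members held 674648 UMIs in the library labelled KO and 753895 in the library labelled WT. A member had a median of 4277 UMIs in the library labelled KO and 5614.5 in the library labelled WT, against 5444.5 and 5348.5 in the other cells of these libraries. Levels below are CPM, the UMIs of a gene summed over a set of cells and scaled to all UMIs of that set. Of the 208 members 8 were called doublets by Scrublet, 3 labelled KO and 5 labelled WT. Another 6 cells labelled KO and 5 labelled WT had 3 or more rule genes but also Cd79a and were left out by the rule. The libraries shared 52 barcodes among cells that passed the filter, none of them a member.

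**Figure D1:**
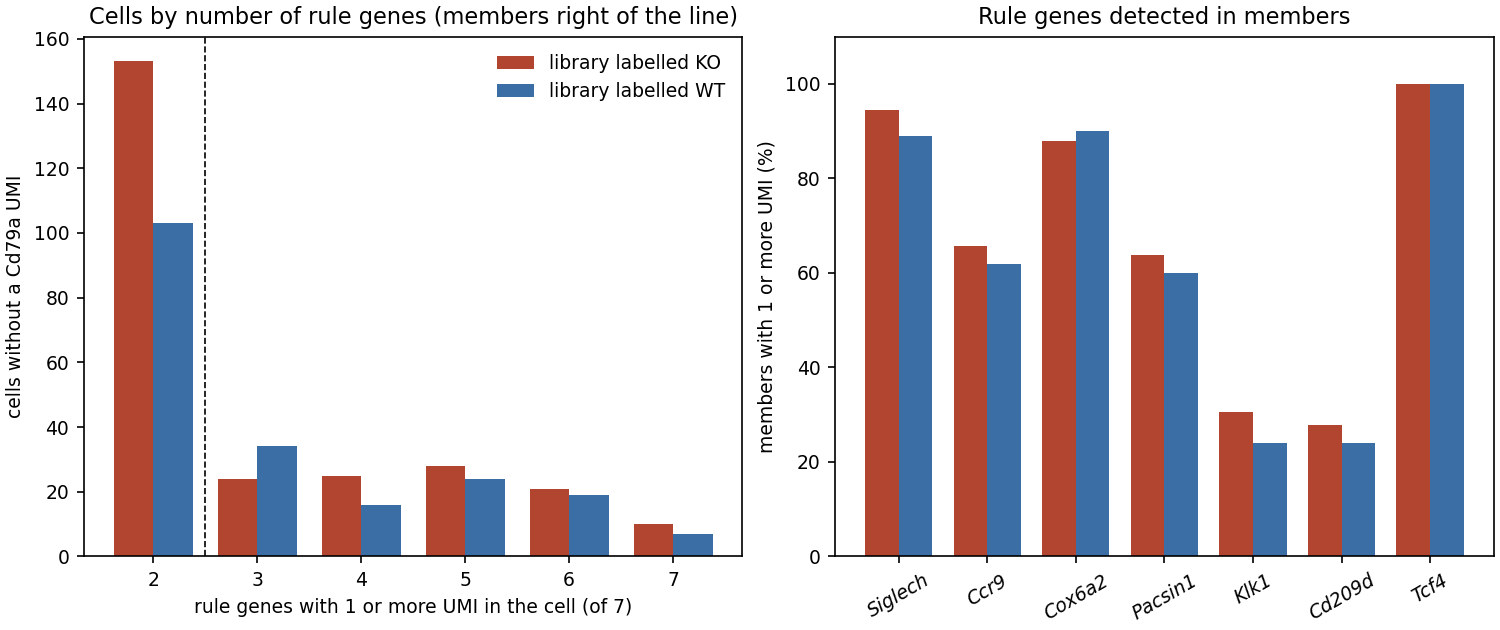
Left, number of cells without a Cd79a UMI by how many of the 7 rule genes they hold, in the libraries labelled KO (red) and WT (blue), with members right of the dashed line. Right, percentage of members with at least 1 UMI of each rule gene, from 100% for Tcf4 to 27.8% (KO) and 24% (WT) for Cd209d.

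The members were chosen by their own UMIs of the 7 rule genes, so the values of these genes describe the choice and support nothing. Tcf4 was found in all members at 3153 CPM in KO-labelled and 3137 CPM in WT-labelled members. Siglech, the sialic acid-binding receptor that defines these cells in mouse, was at 744 and 623 CPM and was detected in 94.4% of KO-labelled and 89% of WT-labelled members. Cox6a2, the muscle-type subunit of cytochrome c oxidase, was at 800.4 and 806 CPM in KO-labelled and WT-labelled members. Its counterpart in most tissues, Cox6a1, was at 184 and 206 CPM in the members, against 268 and 230.1 CPM in the other cells labelled KO and WT. Pacsin1, an adaptor of endocytosis, was at 242 CPM in KO-labelled and 174 CPM in WT-labelled members, and Ccr9, the receptor for the gut and thymus chemokine CCL25, was at 347 and 206 CPM. The kallikrein protease gene Klk1 (151 and 170 CPM) and the lectin gene Cd209d (107 and 95.5 CPM) were found in 30.6% of KO-labelled and 24% of WT-labelled members for Klk1 and in 27.8% and 24% for Cd209d. In the other cells Siglech, Ccr9, Pacsin1, Klk1 and Cd209d each stayed near or below 1 CPM. Klk1 and Cd209d belong to families of near-identical copies, so some of their reads may stem from a relative.

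The values on either side of the threshold are given without a test, and those of rule genes are partly fixed by the split itself. Members with exactly 3 rule genes numbered 24 (KO) and 34 (WT), and cells with 2 rule genes and no Cd79a numbered 153 and 103. Of those cells just outside, 152 of 153 labelled KO and all 103 labelled WT held Tcf4, and 106 and 70 held Cox6a2, while 12 and 5 held Siglech. Over both libraries Siglech was at 194 CPM in members with 3 rule genes and at 6.09 CPM in cells with 2 of them, Runx2 at 1444 and 306 CPM, Ly6d at 1340.1 and 119 CPM, and the granulocyte enzyme gene Mpo at 125 and 1342 CPM. Cells with 2 rule genes had medians of 13152 (KO) and 13563 (WT) UMIs, above the 7358.5 and 9762 of members with 3.

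Markers that the rule did not use were higher in the members as well. They go with the rule genes, so their values describe the members and do not test the label. All 9 genes of the plasmacytoid marker set that are not rule genes were at least 2-fold higher in members than in other cells in both libraries, and their summed level was 9145.5 CPM in KO-labelled and 8499 CPM in WT-labelled members, against 321 and 318 CPM in the other cells. Of 3885 genes with enough UMIs to compare, 19.7% were at least 2-fold higher in the members in both libraries and 5.66% were at least 2-fold lower. These were 767 and 220 genes, and with median-ratio size factors in place of CPM 424 higher and 429 lower. All genes together had a median log2 ratio of members over other cells of 0.30 (KO) and 0.39 (WT). Of 35 other plasmacytoid identity genes listed, 30 could be compared. Of these 26 were past 2-fold higher and none lower, with median log2 ratios of 4.04 in the library labelled KO and 3.85 in the library labelled WT. A gene low in other cells was compared only if it reached 50 CPM in members. A gene low in members was likewise compared only if it reached 50 CPM in other cells. The list counts here and below thus lean towards higher genes for lists of this lineage and towards lower genes for lists of other lineages. They describe the members without a test.

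The cells carried the transcription factors known from this lineage. Runx2, required for these cells to leave the marrow, was at 2001 CPM in KO-labelled and 1991 CPM in WT-labelled members, against 59.1 and 59.6 CPM in other cells. Irf8, a factor of several dendritic and monocytic lineages, was at 1507 and 1487 CPM in the members and at 62.9 and 64.2 CPM elsewhere. Monocytic cells had Irf8 at 370 (KO) and 450 (WT) CPM. Spib had 81.5 and 59.7 CPM in the members and 3.02 and 2.77 CPM elsewhere, and Bcl11a 529 and 517 CPM against 78.8 and 89.3 CPM. B lineage cells lay nearer to the members, with Spib at 39.9 (KO) and 37.2 (WT) CPM and Bcl11a at 209 and 261 CPM. The MYC family gene Mycl was at 47.4 and 45.1 CPM in the members and at 0.548 and 0.290 CPM in other cells. Id2, the antagonist of TCF4, was at 45.9 CPM in KO-labelled and 63.7 CPM in WT-labelled members, against 97.2 and 94.5 CPM in all other cells. Among those other cells Id2 was at 142 and 137 CPM in maturing neutrophils but at 36.6 and 37.3 CPM in B lineage and 17.4 and 20.7 CPM in erythroid cells, so its level in members lay between these classes. Of 32 listed transcription factors 21 could be compared, and 13 were past 2-fold higher. The 1 lower was Cebpb, which acts in granulocytes and monocytes (119 and 59.7 CPM in members, 270.0 and 274 CPM elsewhere). Of all genes 19.7% were higher and 5.66% lower, so 1 of 21 lower is near the share of all genes.

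**Figure D2:**
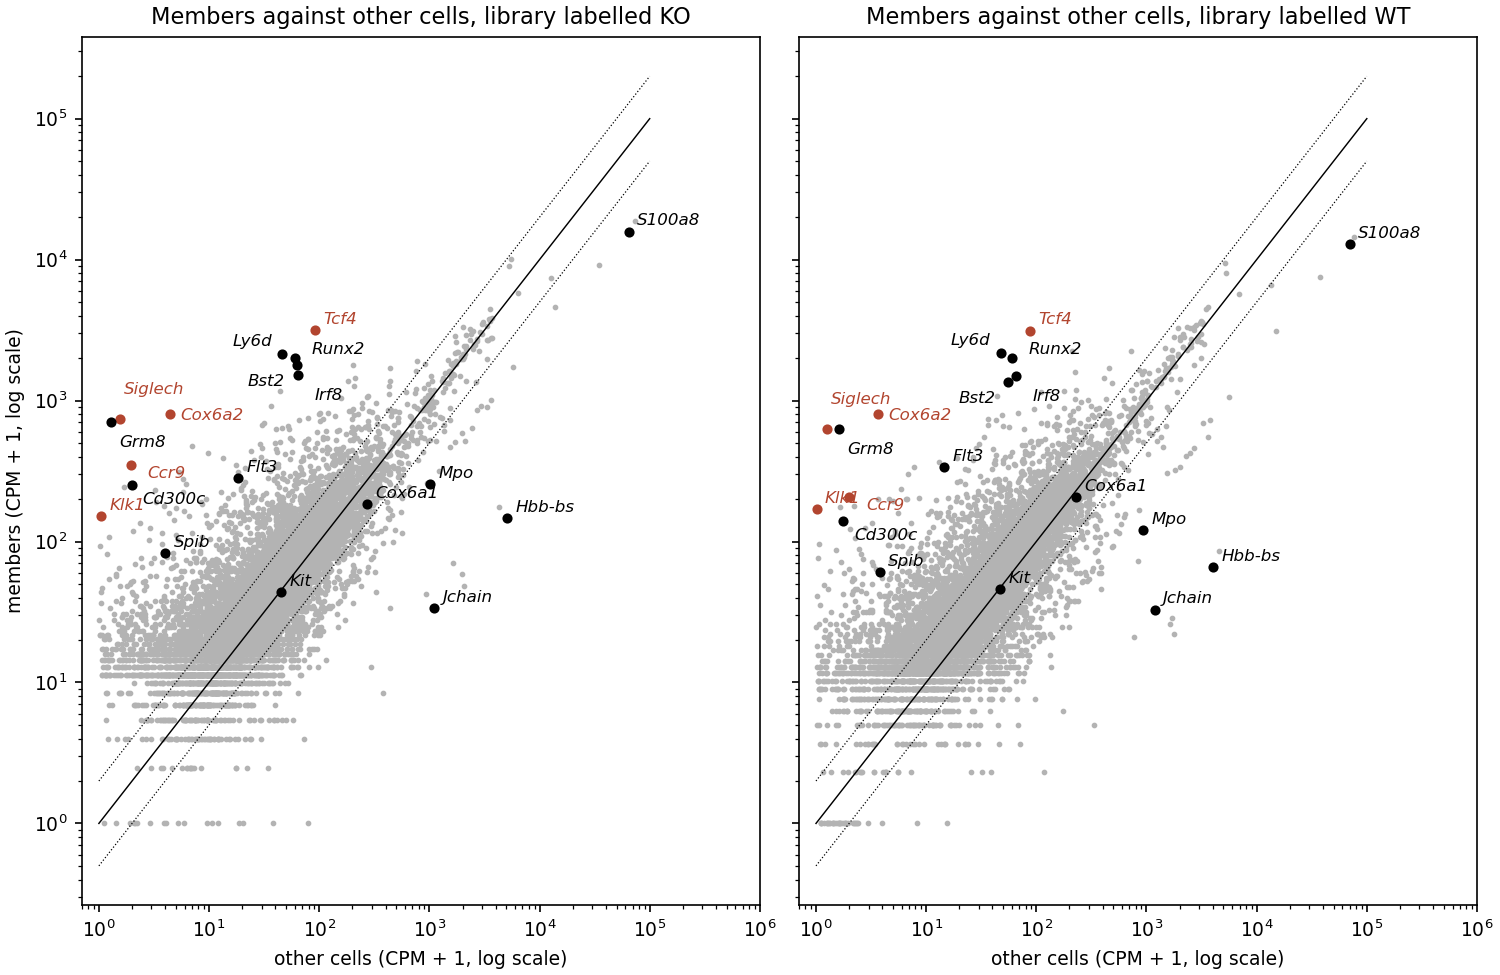
Level of each gene in members (vertical) against the other cells (horizontal), CPM plus 1 on log scales, in the libraries labelled KO (left) and WT (right), with lines at equality and at 2-fold. Genes at 10 CPM or more in the members of a library are shown, and rule genes are red. Runx2, Irf8, Ly6d, Bst2 and Grm8 sit far above the line in both libraries and Kit lies on it.

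Outside the rule, the largest difference from other cells was that of Grm8. Grm8, which codes for a metabotropic glutamate receptor of neurons (GRCm38 chromosome 6, minus strand, from 27275119 to 28135178), was at 706 CPM in KO-labelled and 625 CPM in WT-labelled members and at 0.289 and 0.613 CPM in other cells. It was detected in 58.3% of KO-labelled and 48% of WT-labelled members and, with each cell thinned to 2000 UMIs, in 51.0% and 43.2% of the members but 0.0592% and 0.0525% of the other cells (0.206% and 0.249% unthinned). Thinning left out 6 KO-labelled and 5 WT-labelled members, and 1775 and 1427 other cells. Erythroid cells, which should lack it, had 0.175% (KO) and 0.271% (WT) of thinned cells with a Grm8 UMI, at median depths of 5751.5 and 5798 UMIs. Cd300c, an activating receptor of the CD300 family, was at 251 and 138 CPM in the members and at 0.996 and 0.774 CPM elsewhere. Ly6d was at 2143 CPM in KO-labelled and 2175 CPM in WT-labelled members, against 45.2 and 46.4 CPM in other cells. Among these, B lineage cells had Ly6d at 552 (KO) and 562 (WT) CPM. The other named genes on this side were Upb1 and Kmo, enzymes of pyrimidine and tryptophan breakdown, the magnesium carrier gene Slc41a2, the cytokine receptor gene Lifr, the receptor kinase gene Epha2, and Ctnnd2, Zc3h12c, Srgap3, Pdzd4, Ncald and Carmil1. Their levels in members lay between 56.3 and 477 CPM (KO) and between 61.0 and 336 CPM (WT), and their log2 ratios over other cells between 5.32 and 6.35.

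Endosomal nucleic acid sensing was represented by its receptor TLR7 and its proteases. Of 29 listed genes of the TLR7 and TLR9 pathway 19 could be compared. Of these 13 were past 2-fold higher in the members of both libraries and none lower, against 19.7% and 5.66% of all genes. Tlr7 was at 60.8 CPM in KO-labelled and 69.0 CPM in WT-labelled members, against 4.89 and 5.48 CPM in other cells. Tlr9 gave 1 UMI in all KO-labelled and none in all WT-labelled members, too few to compare. A count of 0 allows up to 3.98 CPM in the WT-labelled members. The cathepsin genes Ctsl (375 and 321 CPM in members, 24.3 and 22.9 CPM elsewhere) and Ctss (267 and 231 CPM, against 50.5 and 46.6 CPM), whose enzymes trim the receptors in endosomes, were higher. So were Tasl, an adaptor of the pathway to IRF5 (71.1 and 55.7 CPM, against 6.55 and 6.20 CPM), and Pld4, an exonuclease that removes nucleic acids there (200.1 and 96.8 CPM, against 8.39 and 8.05 CPM). The signalling genes Myd88 (19.3 and 17.2 CPM in members, 22.7 CPM in other cells of each library) and Irak4 (17.8 and 15.9 CPM, against 22.1 and 20.7 CPM) were not higher.

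No interferon transcript was seen. The 17 listed type I and III interferon genes gave 0 UMIs in the 674648 member UMIs labelled KO and 0 in the 753895 labelled WT, which allows summed levels of up to 4.45 and 3.98 CPM. Irf7, which drives interferon transcription once induced, was at 26.7 CPM in KO-labelled members (18 UMIs) and 10.6 CPM in WT-labelled members (8 UMIs), against 4.23 and 3.30 CPM. Of 38 listed interferon receptor and interferon-stimulated genes only 7 had enough UMIs to compare. Of these 5 were past 2-fold higher, against 19.7% of all genes. Bst2, the tetherin antigen used to stain these cells, was at 1783 and 1352 CPM in the members and at 61.9 and 54.2 CPM elsewhere, and Trim30a was at 187 and 211 CPM against 32.5 and 31.4 CPM. Ifnar2, a chain of the interferon receptor, was at 182 and 118 CPM in the members, against 43.2 and 47.2 CPM.

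Receptors and adaptors at the surface followed the same division. For the counts that follow, 19.7% of all genes compared were past 2-fold higher and 5.66% lower. Of 26 listed genes of ITAM adaptors and inhibitory receptors 20 could be compared, and 10 were past 2-fold higher and 4 lower. Klra17, a Ly49-family receptor of these cells, was at 102 CPM in KO-labelled and 106 CPM in WT-labelled members against 4.27 and 3.91 CPM. The Fc receptor gene Fcgr3 was among the lower ones (14.8 and 11.9 CPM, against 60.4 and 60.9 CPM). Of 23 listed chemokine receptor and adhesion genes 15 could be compared, and 9 were higher. Itgam, the CD11b integrin chain, was the 1 lower (80.0 and 38.5 CPM in members, against 169 and 189 CPM). A count of 1 of 15 lower is near the share of all genes. Of 21 listed cytokine receptor genes 9 could be compared, and 7 were higher and 2 lower. Of 17 listed class II and costimulation genes 6 could be compared, and 4 were higher. H2-Aa was at 402 and 369 CPM in members against 129.9 and 105 CPM elsewhere. Cd74, the invariant chain, was at 1075 and 837 CPM against 273 and 216 CPM. B lineage cells held more than the members, with H2-Aa at 655 (KO) and 799 (WT) CPM and Cd74 at 1698 and 1878 CPM, and monocytic cells had H2-Aa at 524 and 295 CPM and Cd74 at 962 and 493 CPM.

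Kit, the receptor on which the marrow was enriched, was no higher in the members. It was at 43.0 CPM in KO-labelled and 45.1 CPM in WT-labelled members and at 43.9 and 45.8 CPM in the other cells. After thinning, 5.88% of KO-labelled and 11.6% of WT-labelled members had a Kit UMI, against 6.18% and 6.38% of other cells and 0.350% and 0.542% of erythroid cells. Unthinned, the shares with a Kit UMI were 24.1% of KO-labelled and 22% of WT-labelled members, against 18.01% and 17.30% of other cells. Flt3, the receptor of dendritic progenitors, was higher, at 280.1 and 334 CPM in the members and 17.5 and 13.6 CPM elsewhere. Of 26 listed stem and progenitor genes 11 could be compared. Of these 7 were past 2-fold higher and none lower, against 19.7% and 5.66% of all genes. Sox4 was at 169 and 171 CPM in members against 40.9 and 36.1 CPM. Lymphoid genes were present as well. Dntt, the terminal transferase of lymphoid progenitors, was at 461 and 462 CPM in the members against 29.2 and 27.2 CPM, and Il7r at 163 and 159 CPM against 13.2 and 12.5 CPM. B lineage cells had Dntt at 271 (KO) and 254 (WT) CPM and Il7r at 125 and 109 CPM. After thinning, 32.4% of KO-labelled and 30.5% of WT-labelled members had a Dntt UMI, against 30.8% and 24.0% of B lineage cells. Thinning left out 576 of 1287 KO-labelled and 517 of 1291 WT-labelled B lineage cells, the shallower ones. Unthinned, the shares with a Dntt UMI were 45.4% and 52% of members, against 22.2% and 18.9% of B lineage cells. Of 33 listed B and lymphoid genes 17 could be compared, and 9 were higher and 7 lower. Vpreb3 gave no UMI in any member against 59.8 and 55.3 CPM in other cells, while Igkc was at 175 and 84.9 CPM in members against 4257 and 4559 CPM.

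Genes of other marrow lineages were mostly far lower in the members. Of 16 neutrophil granule genes 15 were past 2-fold lower and none higher, and S100a8 was at 15820.1 CPM in KO-labelled and 12894 CPM in WT-labelled members, against 64645 and 69702 CPM in the other cells. All 9 erythroid genes compared were lower, but only 3 listed erythroid genes averaged 50 CPM or more over the libraries' members. The others were compared through their level in other cells. Of all genes compared 5.66% were lower. The 10 lowest ratios named by rule belonged to B, plasma, platelet, red cell and monocyte genes, among them Jchain (32.6 and 31.8 CPM in members, 1108 and 1188 CPM elsewhere) and Pf4 (1 UMI in each library's members). Neutrophil transcripts were uneven among members: 12 KO-labelled and 8 WT-labelled members drew 1% or more of their UMIs from Ltf, Ngp, Camp and Lcn2, up to 14.1% and 12.6%, while the medians were 0.157% and 0.0893%. The conventional dendritic marker set summed to 1479 CPM in KO-labelled and 1358 CPM in WT-labelled members against 679 and 607 CPM. Of its 10 genes 5 were past 2-fold higher, among them Clec9a (26.7 and 37.1 CPM, against 1.62 and 1.28 CPM). Of the rest, Cst3 was higher short of 2-fold, and Zbtb46 (5.93 and 6.63 CPM, against 8.10 and 8.20 CPM) was not higher. Naaa was lower (1.48 and 5.31 CPM, against 10.8 and 10.3 CPM). In KO-labelled and WT-labelled members Batf3 gave 0 and 6 UMIs, and Xcr1 gave 0 in both. The monocyte set had 1 of 6 genes higher, Ly86, and Csf1r was at 13.3 and 14.6 CPM in members.

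The members differed among themselves along the number of rule genes they held. Going from members with 3 rule genes to those with 4, 5 and 6 or 7, Flt3 over both libraries was at 470.3, 351, 190.3 and 92.3 CPM, and Dntt at 761, 466, 280.1 and 92.3 CPM. Sox4, a progenitor transcription factor, ran at 265, 245, 86.2 and 9.55 CPM and Cd34 at 81.7, 35.1, 3.59 and 6.37 CPM. The opposite course was taken by Cd74 (69.0, 217, 1325 and 2824 CPM), Bst2 (525, 1325, 2388 and 2834 CPM), Ctsl (38.1, 186, 531 and 869 CPM) and Grm8 (67.2, 326, 905 and 1799 CPM). Ly6d peaked in members with 4 rule genes, at 1340.1, 4007, 2639 and 1496 CPM. Irf8 and Runx2 were between 1026 and 2639 CPM at each step. The median depth fell along the same classes, being 7358.5, 6172, 3671.5 and 3858 UMIs in KO-labelled and 9762, 7139.5, 4340.5 and 4447.5 UMIs in WT-labelled members, and the part of depth in these courses was not tested. The number of rule genes groups the cells by measured values, so the courses describe these members only.

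**Figure D3:**
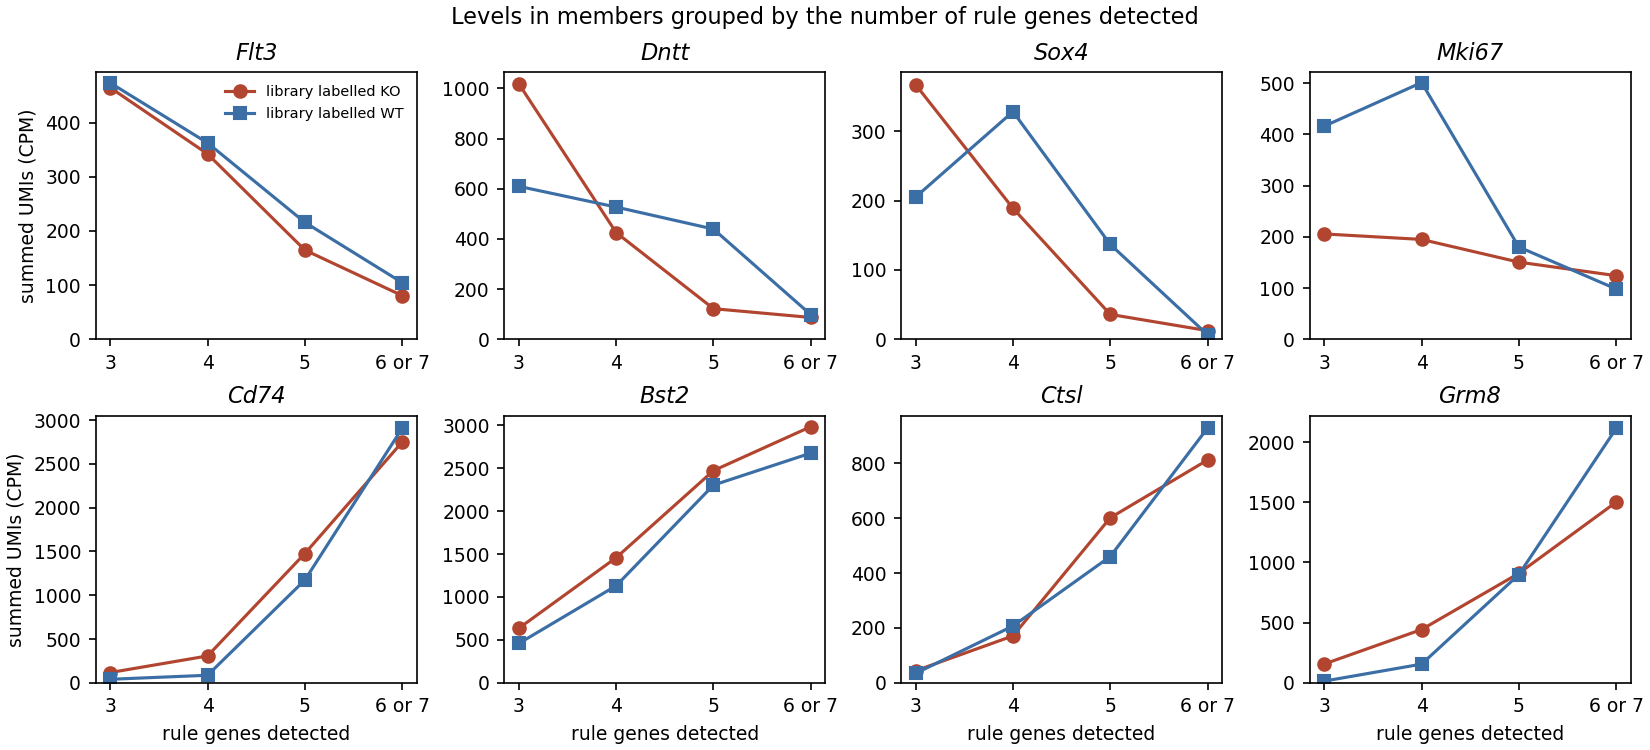
Summed level (CPM) of 8 genes in members with 3, 4, 5 and 6 or 7 rule genes detected, in the libraries labelled KO (red circles) and WT (blue squares). Flt3, Dntt and Sox4 (top) end lower than they start and Cd74, Bst2, Ctsl and Grm8 (bottom) end higher in both libraries.

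Clustering of the 208 members without the rule genes gave 5 clusters, numbered here by their mean count of rule genes, from 3.28 to 5.67. The clusters and the genes named for them were chosen after their values were seen, and a cluster's leading genes describe it without a test. Cluster 1 held 25 cells and was led by Fgf13, Tox, Dntt (1671 CPM) and Adgrl4 (420.2 CPM), with Flt3 at 635 CPM. It had Tcf4 at 1358 CPM and Runx2 at 1466 CPM. Siglech was at 138 CPM there, Spib had 1 UMI, and Klra17, Grm8 and Cd300c had 0 UMIs. Cluster 2 held 54 cells and was led by genes of mitosis such as Cep55, Ect2 and Prc1, with Mki67 at 520.2 CPM and Ly6d at 2825 CPM. Its levels of Siglech, Spib and Klra17 were 276, 49.1 and 14.6 CPM. Cluster 3 held 45 cells, had no Mki67 UMI and was led by Egfr, Eepd1, Gpr183 and Ppm1h, with Siglech at 1502 CPM and Bst2 at 3247 CPM. Cluster 4 held 21 cells and was led by neutrophil granule genes (Ngp 18066 CPM, Lcn2 6448 CPM), while its plasmacytoid identity genes summed to 8823 CPM. Cluster 4 had 20 cells with 1% or more Ltf, Ngp, Camp and Lcn2 UMIs, a median of 12590 UMIs per cell, and all 8 Scrublet calls among the members. Cluster 5 held 63 cells and was led by Agbl1, Cd209a, class II genes and Grm8 (2706 CPM), with H2-Aa at 1679 CPM, Cd74 at 3795 CPM and Klk1 at 678 CPM. Plasmacytoid identity genes outside the rule summed to 7170 CPM in cluster 1 and 11028 CPM in cluster 2, against 23390.5 and 26189 CPM in clusters 3 and 5. In clusters 1 and 2 the plasmacytoid name thus rests mainly on the rule, and their stage was not tested.

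Both libraries had cells in every cluster. The shares of KO-labelled members in clusters 1 to 5 were 10.2%, 21.3%, 25%, 11.1% and 32.4%, and those of WT-labelled members 14%, 31%, 18%, 9% and 28%. The 95% intervals of KO-labelled and WT-labelled members overlapped in each cluster, for example 14.0 to 30.2% against 22.1 to 41.0% in cluster 2.

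**Figure D4:**
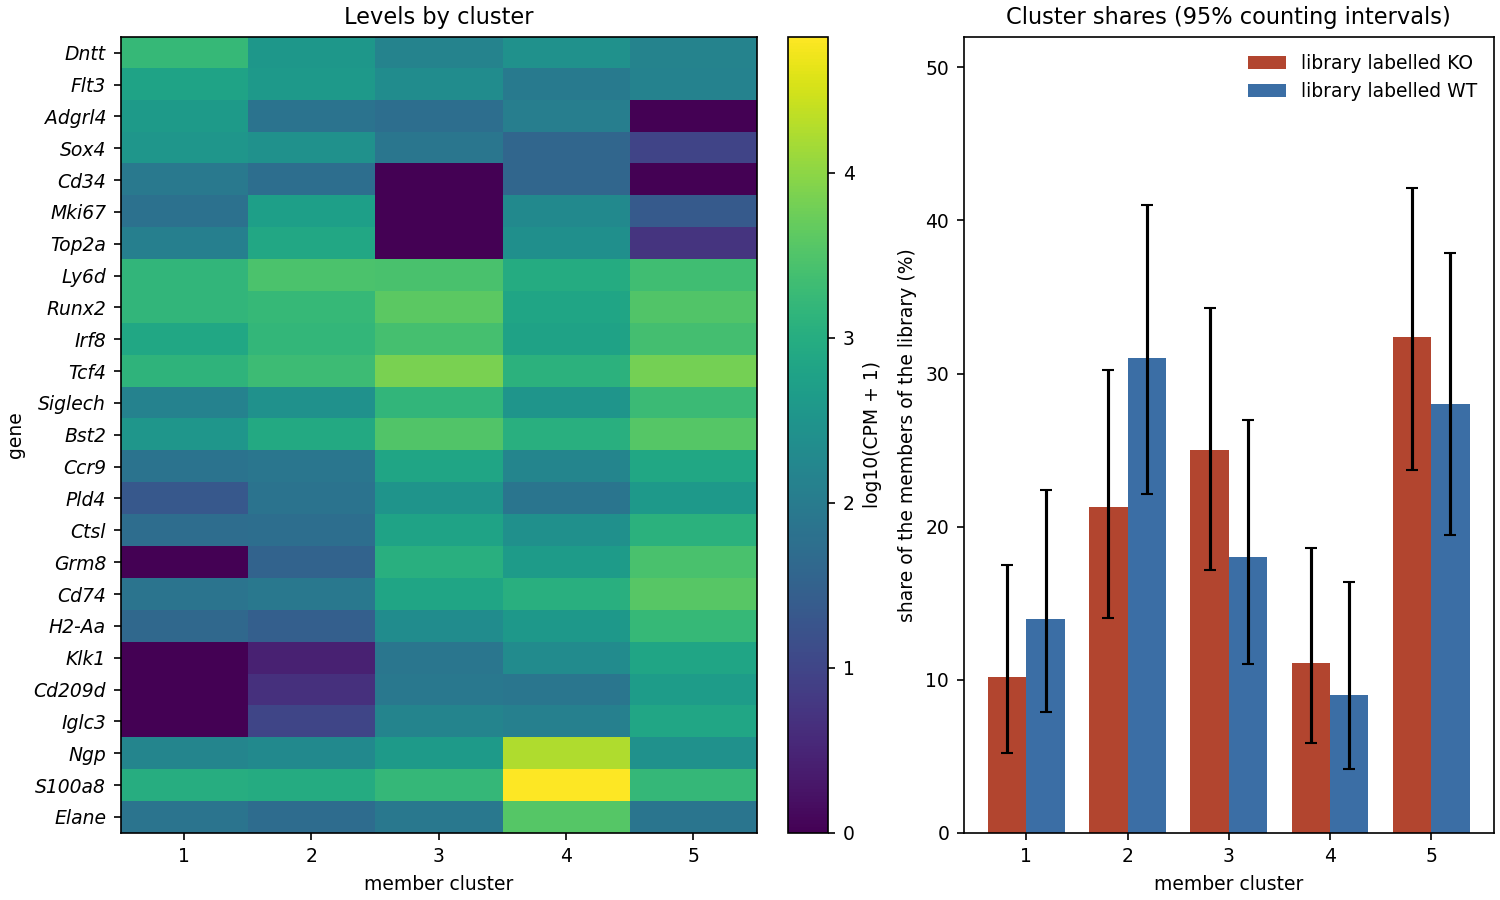
Left, level of 25 genes in the 5 member clusters as log10(CPM + 1), both libraries together. Right, share of each library's members in each cluster for the libraries labelled KO (red) and WT (blue), with exact 95% counting intervals, which overlap in every cluster.

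Rbm5, the targeted gene (GRCm38 chromosome 9, minus strand, from 107740371 to 107770996), gave 68 UMIs in KO-labelled members (101 CPM) and 88 UMIs in WT-labelled members (117 CPM), a KO over WT ratio of 0.863 (0.620 to 1.20). In the other cells it was at 89.5 CPM in the library labelled KO and 75.1 CPM in the library labelled WT, a ratio of 1.19 (1.15 to 1.23). The transcript was thus present in members of the library labelled KO, and since no label says which exons were removed, these counts do not check the labels. Its relatives Rbm6 (224 and 257 CPM) and Rbm10 (37.1 and 42.4 CPM in KO-labelled and WT-labelled members) had log2 ratios of -0.20 and -0.19. None of the 11 genes of the Rbm5 family and its splicing partners was past 2-fold between the libraries' members, where 1.14% of all genes compared were, their median log2 ratio being -0.19 against -0.05 for all genes.

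Gene levels in KO-labelled members lay close to those in WT-labelled members. Of 3783 genes averaging at least 50 CPM over the libraries' members, which is about 34 to 38 UMIs per library, 0.502% were at least 2-fold higher in KO-labelled members and 0.634% at least 2-fold lower, both ways together those 1.14% (19 and 24 genes, or 24 and 13 with median-ratio size factors), and 16.7% had a counting interval off 1. In the other cells, with far more UMIs, 0 of 3042 genes averaging at least 50 CPM there were past 2-fold. None of the core factors was past 2-fold: the ratio of KO-labelled over WT-labelled members was 1.01 (0.947 to 1.07) for Tcf4, 1.01 (0.933 to 1.08) for Runx2 and 1.01 (0.930 to 1.10) for Irf8, and for Ly6d it was 0.985 (0.917 to 1.06).

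Several named genes had higher levels in KO-labelled members, and Pld4, Rnd3 and Hs3st1 among them were named for the size of that ratio. Pld4 was at 200.1 CPM in KO-labelled and 96.8 CPM in WT-labelled members, a ratio of 2.07 (1.54 to 2.79), and was found in 63 of 108 and 47 of 100 members. Fyb, an adaptor of integrin signalling, was at 809 and 409 CPM, a ratio of 1.98 (1.72 to 2.29). Ccr9, a rule gene, had a ratio of 1.69 (1.37 to 2.08), Cd300c 1.82 (1.41 to 2.34) and Grn, which codes for progranulin, 1.66 (1.36 to 2.02). Rnd3, which codes for a small GTP-binding protein, was at 157 and 70.3 CPM (ratio 2.23, 1.59 to 3.17), and the heparan sulfate enzyme gene Hs3st1 at 114 and 53.1 CPM (2.15, 1.45 to 3.24). The identity list as a whole leaned the same way, with 23 of 30 genes higher in KO-labelled members and a median log2 ratio of 0.32, none past 2-fold. Over all genes 56.3% had a log2 ratio below 0.

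Proliferation genes leaned the other way. Of 20 S phase genes 18 were lower in KO-labelled members (median log2 ratio -0.45), and of 21 G2 and mitosis genes 19 were lower (median -0.44). None was past 2-fold, and Mki67 was at 172 CPM in KO-labelled and 321 CPM in WT-labelled members, with a log2 ratio of -0.90. Members with UMIs of 10 or more G2 and mitosis genes made up 23.1% (15.6 to 32.2) of KO-labelled and 34% (24.8 to 44.2) of WT-labelled members. With cells thinned to 2000 UMIs and 5 or more such genes, the shares were 26.5% (18.2 to 36.1) and 33.7% (24.3 to 44.1), against 52.4% and 47.0% of the other cells. The intervals of the shares overlapped, which does not test their difference, and the difference was not tested. Without the members holding 10 or more of these genes, the identity list had a median log2 ratio of 0.12 and 20 of 30 genes higher in KO-labelled members. With members of 4 or more rule genes only, its median was 0.03. Under that removal of cycling members the log2 ratio was 0.93 for Pld4, 0.86 for Fyb, 0.71 for Ccr9 and 1.15 for Rnd3. It was 0.61 for Cd300c, 0.42 for Grn and 0.69 for Hs3st1, against 0.86, 0.73 and 1.09 in all members.

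**Figure D5:**
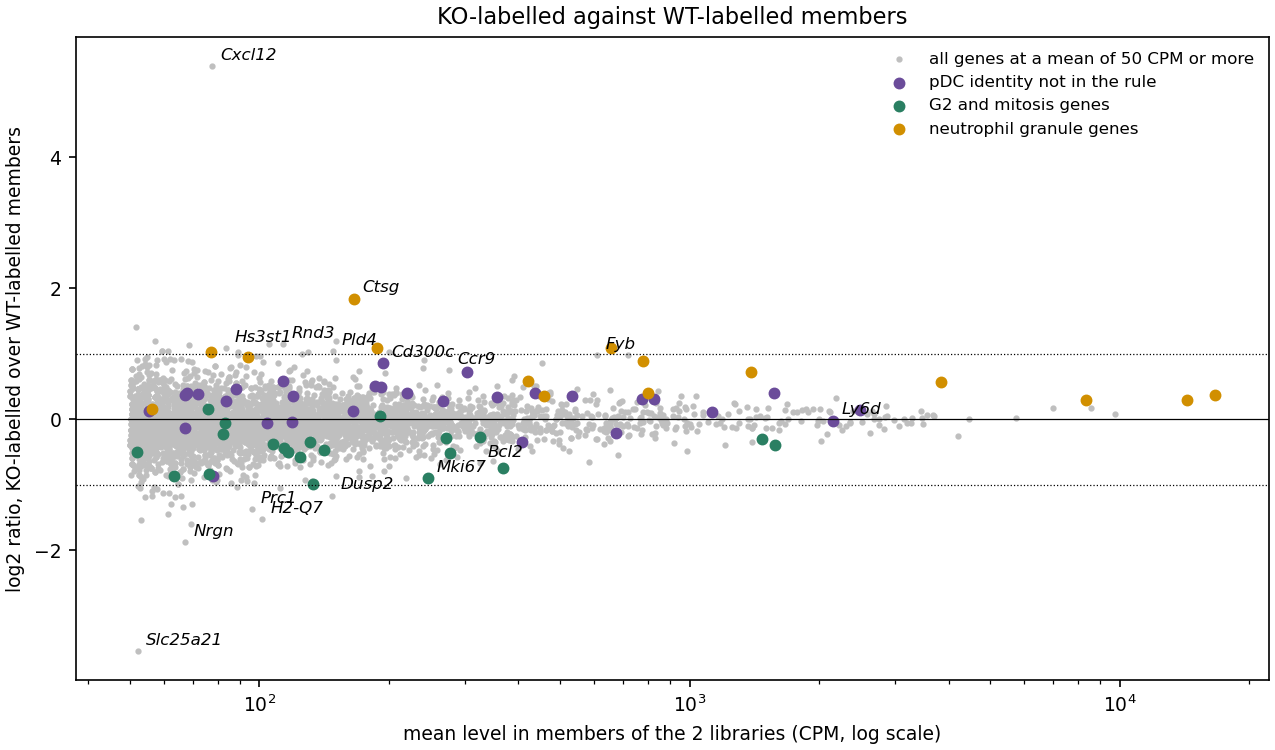
Log2 ratio of KO-labelled over WT-labelled members (vertical) against the mean level in CPM on a log scale (horizontal) for 3783 genes, with dotted lines at 2-fold. Plasmacytoid identity genes (purple) lie mostly above 0, G2 and mitosis genes (green) mostly below 0, and neutrophil granule genes (orange) above 0.

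Several of the largest ratios rested on few cells. Cxcl12, a chemokine of marrow stromal cells, had the highest log2 ratio (5.39), but 102 of its 103 UMIs in KO-labelled members came from 1 cell. That cell had 10092 UMIs and 4 rule genes, and also held 49 UMIs of Igfbp5, 29 of Kitl, 19 of Lpl and 19 of Sparc, genes looked up after its values were seen. Without that cell, and without the top WT-labelled cell, the log2 ratio of Cxcl12 was 0.09. Slc25a21, a mitochondrial carrier gene, had the lowest (-3.54, 5 UMIs in KO-labelled and 73 in WT-labelled members), and -0.37 without the top cell of each library, while Car2 moved from -1.44 to -0.05. Ctsg, Hp, Prtn3 and Mpo, genes of neutrophil granules or their precursors, had log2 ratios of 1.84, 1.19, 1.09 and 1.09, and all 15 neutrophil granule genes were higher in KO-labelled members. Without the 12 KO-labelled and 8 WT-labelled members rich in neutrophil UMIs, Mpo was at 43.6 CPM in KO-labelled and 89.1 CPM in WT-labelled members (log2 ratio -1.01) and Prtn3 at 125 and 328 CPM (-1.38). In the same cells Hp had a log2 ratio of 1.60 and Ctsg one of 0.29, and the 15 neutrophil granule genes had a median of 0.21, with 6 of them lower in KO-labelled members, against a median of 0.59 in all members.

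The other named genes past 2-fold lower in KO-labelled members included cell cycle genes and H2-Q7. Prc1 and Pbk, which act in mitosis, had log2 ratios of -1.37 and -1.29, and E2f3, a factor of S phase entry, -1.54. H2-Q7, a nonclassical class I gene with near-identical copies, was at 51.9 CPM in KO-labelled and 151 CPM in WT-labelled members (log2 ratio -1.53), and was lower in the other cells of the library labelled KO as well (-0.79). It was found in 21 of 108 KO-labelled and 57 of 100 WT-labelled members. Commd10, in contrast, was higher in the library labelled KO, both in members (log2 ratio 1.14) and in other cells (1.24, at 43.5 and 17.8 CPM, under the level of 50 CPM used for the counts). Nrgn was at 28.2 and 106 CPM, Nfia at 34.1 and 105 CPM, Ncoa7 at 38.5 and 88.9 CPM and Pip5k1b at 37.1 and 95.5 CPM in KO-labelled and WT-labelled members. Without cycling members the log2 ratio was -0.15 for Prc1, -0.47 for E2f3, -0.55 for Nrgn, -0.58 for Ncoa7, and -0.96 for both Pbk and Nfia, all short of 2-fold, while it was -1.43 for Pip5k1b and -1.45 for H2-Q7. With the rule applied to thinned cells, Nrgn had a log2 ratio of 0.26. Dusp2, a phosphatase of MAP kinases, was at 90.4 and 204 CPM and had a log2 ratio of 0.39 without cycling members. Bcl2, which protects against cell death, was at 251 CPM in KO-labelled and 399 CPM in WT-labelled members (ratio 0.627, 0.517 to 0.760) and at 58.3 and 51.1 CPM in the other cells, with a log2 ratio of -0.71 without cycling members. Cd34 was at 20.8 and 58.4 CPM in KO-labelled and WT-labelled members, and Ly6a, the Sca-1 antigen, at 54.8 and 101 CPM. The stem and progenitor list had 8 of 11 genes lower in KO-labelled members, with a median log2 ratio of -0.12 and none past 2-fold. Of all genes compared 56.3% were lower, with a median of -0.05. Without members rich in neutrophil UMIs 6 of the 11 were lower (median -0.03), and without cycling members 9 were (median -0.45).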

How the data were processed

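The files deposited by the authors hold whole-number UMI counts, not normalized, in 1 matrix per library. Cell Ranger 7.1.0 and the build mm10 are named in the submitters' processing notes, and the annotation is not given in the sources used here. The c-Kit+ files held 101851873 UMIs in 14577 barcodes (labelled KO) and 94266267 in 13480 barcodes (labelled WT). The cell filter asked for at least 500 genes, at least 1000 UMIs and no more than 10% mitochondrially encoded UMIs. Doublets called by Scrublet in scanpy 1.11.5 (expected rate 0.08, 424 cells labelled KO and 578 labelled WT) were kept, and left out as an alternative. Members and lists were chosen with earlier results of these data known.

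Counts were summed over members and over other cells, scaled to CPM, and compared as log2 ratios with a pseudocount of 1 CPM. A gene counted as past 2-fold at a log2 ratio of 1 or more in size, at 50 CPM or more: for members against other cells in the higher of both sets and in both libraries, for KO over WT as the mean. Intervals (95%) are exact, conditional binomial for ratios and Clopper-Pearson for shares, and the limit for a count of 0 is 3 counts. The ratio and its interval were tested on simulated data. Thinned cells had 2000 UMIs, shallower cells being left out. Erythroid cells had 5% or more haemoglobin UMIs. The other classes are sets by marker UMIs that may overlap: B lineage cells held Cd79a and 2 or more other B lineage markers, monocytic cells 3 or more monocyte markers and no Cd79a, and maturing neutrophils 1% or more Ltf, Ngp, Camp and Lcn2 UMIs. Members were clustered on 1500 variable genes, 10 principal components and 15 neighbours at Leiden resolution 0.6 (igraph 0.11.9).

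The genes named are the rule genes and Cd79a, a fixed set of regulators and receptors, up to 4 high and 2 low genes of each of 27 lists, the 15 highest and 10 lowest ratios of members over other cells, and the 10 highest and 10 lowest of KO over WT with an interval off 1. These rankings left out mitochondrially encoded, Y-linked, haemoglobin and receptor segment genes, Xist, Tsix and gene models named by a number. Positions are from GENCODE M21 (GRCm38) and promoter windows from RefSeq.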

Additional observations from a re-analysis of the deposited data

Results flagged for a closer look

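Of the 43 genes past 2-fold within members, 27 had a log2 ratio of KO over WT of the same sign in the other cells and 16 of the opposite sign. In 7 of the 16, genes named by rule with counting intervals off 1 in both sets of cells, the values were as follows, and the difference between the sets was not tested. Hs3st1 had 1.09 in members and -0.56 in other cells, Itgam 1.04 and -0.16, and Igkc 1.03 and -0.10. Nrgn had -1.88 in members and 0.14 in other cells, Prc1 -1.37 and 0.11, Ncoa7 -1.18 and 0.08, and Dusp2 -1.17 and 0.23. Without members holding 10 or more G2 and mitosis genes, Prc1 was at -0.15 and Dusp2 at 0.39, and the part of cycling cells was otherwise not tested. In the WT MLL-AF9 library, which no comparison used, 5 of 13177 cells met the rule, a share of 0.0379% (0.0123 to 0.0885). What these cells are was not tested.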

How the results depend on the processing

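With 2 or more of the 7 rule genes the members were 1.90% (KO) and 1.57% (WT) of cells, with 4 or more 0.613% and 0.510%, and with the rule applied to cells thinned to 2000 UMIs 0.646% and 0.538%. The other share alternatives moved less than the counting interval, as did the ratio of the shares under every alternative. The count of genes higher in members, 767 as reported, was 1481 at a level of 10 CPM, 2134 with no level filter (both over more genes) and 424 with median-ratio size factors. The count of those lower, 220 as reported, was 524, 1038 and 429 in that order, 371 with thinned cells, 349 with equal weight per cell and 392 without members holding 10 or more G2 and mitosis genes. Median-ratio scaling moved the median log2 ratio of all genes in the library labelled KO from 0.30 to -0.10. The genes higher in KO-labelled members (19) numbered 39 without Scrublet doublets, 40 with 4 or more rule genes, 186 with thinned cells, 299 at 10 CPM, 2594 with no level filter, 34 with equal weight per cell, 29 without members rich in neutrophil UMIs and 56 without members holding 10 or more G2 and mitosis genes. Those lower (24) numbered 44 with 4 or more rule genes, 197 with thinned cells, 293 at 10 CPM, 2598 with no level filter, 13 with median-ratio size factors, and 38 and 37 without the members rich in neutrophil UMIs and in G2 and mitosis genes; the last 2 alternatives were chosen after seeing the data. Over 164 named genes and 10 settings (1640 values), 169 log2 ratios of KO over WT changed sign, in 86 genes, 51 of them with thinned cells and 38 without cycling members. Among genes past 2-fold as reported 8 changed sign, namely Dusp2 (0.39), Car2 (0.12) and Slc25a21 (0.49) without cycling members, Prtn3 (-1.38) and Mpo (-1.01) without members rich in neutrophil UMIs, and Prtn3 (-0.72), Mpo (-1.01) and Nrgn (0.26) with thinned cells. The cause was not tested. Of the other gene values 3165 moved by less than their interval and 727 by more. With 208 members a gene at 50 CPM had about 34 to 38 UMIs, which limits what can be seen between the libraries. No paired analysis was possible because each group is 1 library.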
